A study of Mus musculus with 12 samples.

Results

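Pvt1 is a long noncoding RNA gene, and its RNA was set here beside other long noncoding RNAs that are usually abundant. Of 8 genes named by symbol (Pvt1, Neat1, Malat1, Gas5, Snhg1, Snhg3, Snhg12 and Dancr), 4 were listed among the 16425 genes of the deposited table. These were Pvt1, Snhg12, Snhg3 and Gas5, written PVT1, SNHG12, SNHG3 and GAS5 in the table, and the other 4 were not analysed here. The cells were wild-type mouse embryonic fibroblasts (MEFs), primary cells cultured from mouse embryos. In one group, called sgPVT1, a guide RNA targeted the p53 response element in Pvt1. Such elements are DNA sequences to which p53, a transcription factor activated by DNA damage, binds. Its control carried a non-targeting guide and is called sgTom. The labels name the cells with the targeting guide sg10, and the table's sgPVT1 columns were matched to them because the labels give no other targeting guide. They place the sg10 cells in the experimental series PVT1 p53RE mutant, where p53RE is the p53 response element. The edited sequence itself was not looked at here. Both groups had been in 0.5 µM doxorubicin, a drug that damages DNA, for 24 h, and each held 3 libraries that the labels call biological replicates. The labels do not say whether the cells were a clone or a pool, nor what separates the replicates, so p-values measure the spread between these libraries. The series holds 12 samples in 4 groups, and its 6 untreated libraries were not analysed here.

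Long noncoding RNAs are transcripts, many of them spliced and polyadenylated, that are not known to be translated into a protein. Pvt1 lies beside the growth-promoting gene Myc and is known both for promoting and for limiting Myc activity, depending on whether the RNA or the DNA of the locus is considered. Gas5, Snhg3 and Snhg12 are host genes: their introns hold small nucleolar RNAs (snoRNAs), a class of which many guide chemical modification of ribosomal RNA. The spliced exons of host genes are polyadenylated and are often removed by nonsense-mediated decay, a pathway coupled to translation. The libraries were made from polyadenylated RNA, which captures the spliced host transcripts better than the snoRNAs themselves.

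Between 50091418 and 66132317 reads fell in genes per library. The 12 fibroblast markers looked at, such as Col1a1 and Pdgfra, were all present at 0.5 CPM or more in every library, where CPM are read counts that the authors put on a common scale across libraries. Their summed level was 37300 to 38490 CPM in sgPVT1 libraries and 38640 to 39100 CPM in sgTom libraries. Pvt1 is the gene the guide was directed at, so its level was looked at first.

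Pvt1 stood at 8.04, 5.93 and 5.40 CPM in sgPVT1 replicates 1, 2 and 3, against 16.4, 11.7 and 12.1 CPM in sgTom replicates 1, 2 and 3. All 3 sgPVT1 libraries lay below all 3 sgTom libraries. The means were 6.46 ± 1.40 CPM in sgPVT1 and 13.4 ± 2.61 CPM in sgTom (SD, n = 3 each). Among the genes fitted, 1.47% had all sgPVT1 values below all sgTom values, and Pvt1 was one of them. These levels rested on 331 to 532 reads per sgPVT1 library and 685 to 946 reads per sgTom library. The gene (ENSMUSG00000097039.8) spans chr15:62037986-62378096 on the plus strand (mm10, GENCODE M21), with 6996 bases of merged exons. Values are per gene, so its 10 annotated transcripts were not separated. In bulk RNA, fewer cells with Pvt1 RNA and less Pvt1 RNA per cell cannot be told apart.

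By mean CPM Snhg12 was above Pvt1 in sgPVT1 libraries, while in sgTom libraries Pvt1 (13.4 CPM) and Snhg12 (13.2 CPM) differed by less than the SD of either. It stood at 10.003, 16.9 and 10.7 CPM in sgPVT1 replicates 1, 2 and 3, against 12.1, 15.98 and 11.6 CPM in sgTom replicates 1, 2 and 3. The groups overlapped, and replicate 2 was the highest library of each guide. The means were 12.5 ± 3.79 CPM in sgPVT1 and 13.2 ± 2.42 CPM in sgTom (SD, n = 3 each), on 662 to 943 and 697 to 937 reads per library. Snhg12 (ENSMUSG00000086290.9) spans chr4:132308623-132311024 on the plus strand.

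Snhg3 lies on the other strand of the same chromosome region (ENSMUSG00000085241.7, chr4:132348014-132353686). It stood at 5.17, 5.07 and 5.14 CPM in sgPVT1 replicates 1, 2 and 3, against 5.003, 4.26 and 5.23 CPM in sgTom replicates 1, 2 and 3. The sgPVT1 values lay within the range of the sgTom values. The means were 5.13 ± 0.0515 CPM in sgPVT1 and 4.83 ± 0.507 CPM in sgTom (SD, n = 3 each).

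Gas5, named for its rise in growth-arrested cells, went against its description as an abundant RNA. It stood at 0.227, 0.251 and 0.412 CPM in sgPVT1 replicates 1, 2 and 3, against 0.502, 0.222 and 0.311 CPM in sgTom replicates 1, 2 and 3. The groups overlapped, and the highest and the lowest value both came from sgTom libraries. The means were 0.297 ± 0.101 CPM in sgPVT1 and 0.345 ± 0.143 CPM in sgTom (SD, n = 3 each), from 14 to 30 and 13 to 29 reads per library. Of all genes listed, 7.06% had a lower mean level, against 45.2% for Pvt1, 49.1% for Snhg12 and 36.6% for Snhg3. Each of these genes thus lay below the median listed gene. The gene (ENSMUSG00000053332.13) spans chr1:161034422-161038539 on the plus strand. GENCODE M21 places 10 snoRNA genes inside it on the same strand, and the table collects reads that could not be given to a single gene in an entry of their own. That entry held 0.926% to 1.58% of reads in sgPVT1 libraries and 0.543% to 1.36% in sgTom libraries, and its part in the low Gas5 values was not tested.

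**Figure D1:**
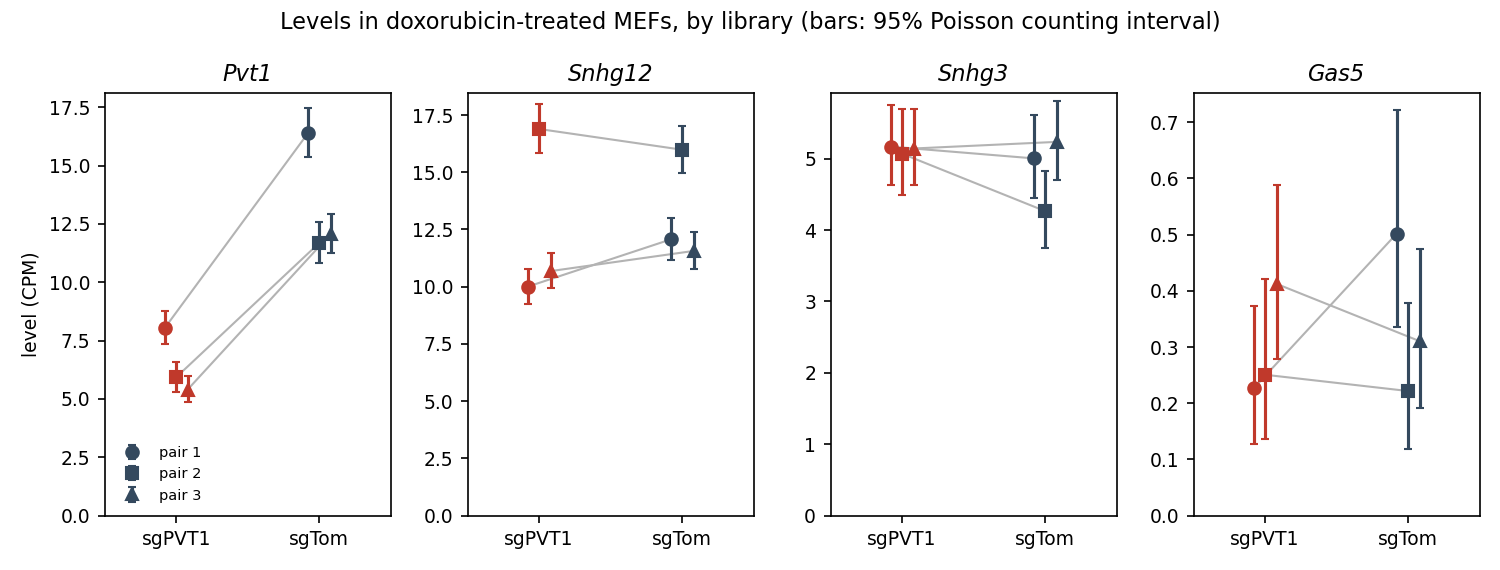
Level of Pvt1, Snhg12, Snhg3 and Gas5 in CPM (vertical axis from 0, a separate scale per gene) in each of the 3 sgPVT1 and 3 sgTom libraries. Points are libraries, grey lines join equal replicate numbers, and bars are 95% Poisson counting intervals. All sgPVT1 values of Pvt1 (5.40 to 8.04 CPM) lie below all its sgTom values (11.7 to 16.4 CPM), while the groups overlap for the other 3 genes.

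The starts of the 3 host genes are shown because their transcripts are known to begin, in many species, at a run of pyrimidines as ribosomal protein mRNAs do, a feature that does not depend on level. Each window is 100 bases from the RefSeq promoter table (GRCm38.p6), with 50 bases before the annotated start and 50 from it. Capitals mark every TATA, overlapping ones included, which reads the same on both strands, and any run of at least 4 C or T at the annotated start. The windows are chr4:132308628-132308727 (plus strand) for Snhg12, chr1:161035116-161035215 (plus strand) for Gas5 and chr4:132353637-132353736 (minus strand) for Snhg3.
Snhg12: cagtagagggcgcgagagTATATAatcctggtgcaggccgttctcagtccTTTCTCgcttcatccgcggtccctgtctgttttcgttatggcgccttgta
Gas5: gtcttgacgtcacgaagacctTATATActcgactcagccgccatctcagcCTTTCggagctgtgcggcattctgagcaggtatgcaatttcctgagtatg
Snhg3: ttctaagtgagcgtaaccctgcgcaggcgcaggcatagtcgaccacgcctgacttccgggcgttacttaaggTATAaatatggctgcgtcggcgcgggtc
Snhg12 has a run of 6 pyrimidines at its start and Gas5 a run of 5, and the annotated Snhg3 start begins with G. A run of at least 4 is found at 6.86% of the 32851 RefSeq promoters. The first TATA begins 32 bases before the start in Snhg12 and 29 before it in Gas5, and 22 bases after the annotated start in Snhg3. TATA is found in the same window of 13.7% of promoters. A second annotated Gas5 start, at 161034601, has neither. The E-box CACGTG, the same on both strands and the site known for Myc, is in none of the 4 windows of 300 bases (250 before and 50 from each start), against 7.15% of all promoters. The consensus p53 half-site, searched on both strands, is also in none of these 4, against 8.36% of all promoters. These matches describe letters only.

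The comparison asked how the RNAs differ after doxorubicin between cells with the guide to the Pvt1 element and cells with the control guide. Limma on log2(CPM + 0.5), without a term for replicate number, called 0 of 14440 genes at a Benjamini-Hochberg adjusted p of 0.05 (0%), with 50 at an unadjusted p under 0.05 (0.346%). That share is smaller than a threshold of 0.05 gives where no gene differs, so p-values of this fit are conservative. EdgeR on recovered reads also called 0 (0%, with 82 unadjusted), and DESeq2 called 1 (0.00609%, with 38 unadjusted). In the limma fit Pvt1 had a log2 fold change of −0.999 (SE 0.188, 95% interval −1.45 to −0.54), lower in 3 of 3 pairs of equal replicate number, and did not pass (limma adjusted p = 1.0). The 1 gene that DESeq2 called was Pvt1 (log2 fold change −1.05, DESeq2 adjusted p = 0.0179). Equal replicate numbers pair these libraries, so the limma fit with replicate number as a block was read beside the first. It called 5 genes (0.0346%), of which 4 were lower (0.0277%) and 1 higher (0.00693%), with 965 at an unadjusted p under 0.05 (6.68%). Pvt1 fell in the blocked fit (95% interval −1.16 to −0.84, limma adjusted p = 1.40e-04). Without the variance trend the blocked fit lost that call (limma adjusted p = 0.249). In the authors' deposited table Pvt1 has a log2 fold change of −1.05 and a false discovery rate of 0.224.

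Snhg12, Snhg3 and Gas5 passed in none of these fits. Snhg12 had a log2 fold change of −0.10 (95% interval −0.63 to 0.44, and −0.26 to 0.06 with the block, limma adjusted p = 0.832). The blocked interval spans 0.837 to 1.04 times the sgTom level. Snhg3 had a log2 fold change of 0.08 (−0.18 to 0.34, and −0.11 to 0.28 with the block, limma adjusted p = 0.900). Its blocked interval spans 0.924 to 1.21 times the sgTom level. Gas5 missed the minimum of 0.5 CPM in 3 libraries and was fitted only without that filter, giving −0.08 (−0.47 to 0.31, and −0.39 to 0.23 with the block, limma adjusted p = 0.949). Without the filter limma called 0 of 16425 genes (0%), and 5 with the block (0.0304%). On the log2(CPM + 0.5) scale the change of so low a gene is understated. On recovered reads, edgeR gave Gas5 a log2 fold change of −0.21.

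Within pairs the 3 Pvt1 ratios were close to each other. The sgPVT1 library held 0.491, 0.507 and 0.448 times the Pvt1 level of its sgTom partner in pairs 1, 2 and 3. All 3 counting intervals, which span 0.396 to 0.579 together, lay below 1 (95%, exact Clopper-Pearson, counting error only). Of the genes fitted, 14.4% were lower in all 3 pairs. The Snhg12 ratios were 0.829, 1.06 and 0.924, and only the interval of pair 1 (0.744 to 0.923) excluded 1. The Snhg3 ratios were 1.03, 1.19 and 0.982, and every interval included 1. The Gas5 ratios were 0.451, 1.13 and 1.33. In pair 1 its interval (0.225 to 0.870) excluded 1, on 15 reads in the sgPVT1 library and 29 in the sgTom library. No gene other than Pvt1 had a ratio on one side of 1 in all 3 pairs among these 4. Myc, chosen as the neighbour of Pvt1, stood at 1.52, 1.80 and 1.51 times its partner in the same pairs, with a log2 fold change of 0.67.

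**Figure D2:**
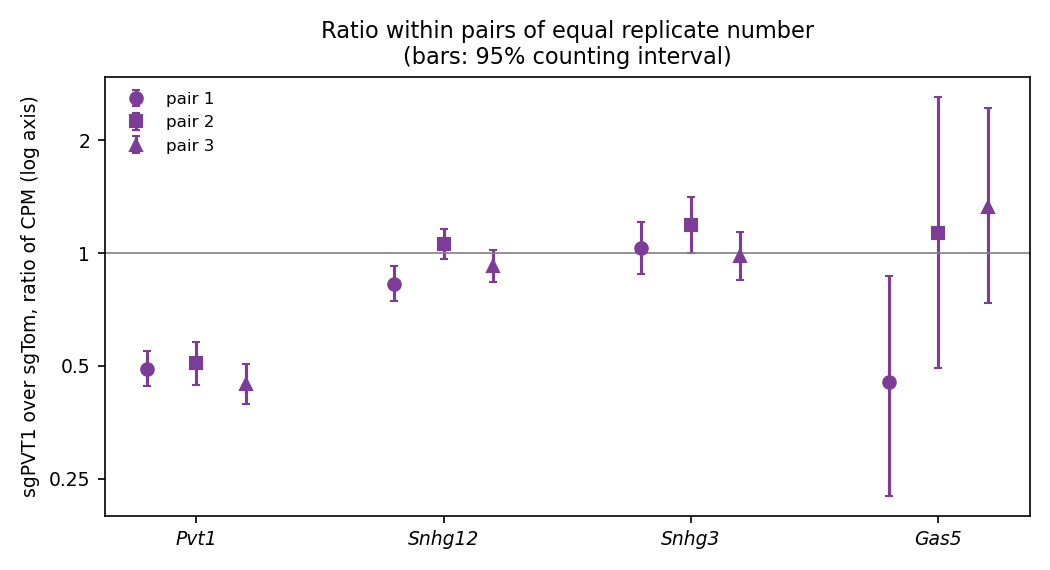
Ratio of the level in the sgPVT1 library to that in the sgTom library of equal replicate number (vertical log axis), for Pvt1, Snhg12, Snhg3 and Gas5 in pairs 1 to 3. Bars are 95% counting intervals. The 3 Pvt1 ratios lie at 0.448 to 0.507 with every interval below 1, and the Gas5 intervals are the widest.

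Set against the other 3 genes of the same library, Pvt1 lay lower in sgPVT1. The log2 level of Pvt1 minus the median of Snhg12, Snhg3 and Gas5 was 0.59, 0.21 and 0.07 in sgPVT1 replicates 1, 2 and 3, against 1.62, 1.35 and 1.13 in sgTom replicates 1, 2 and 3. The groups did not overlap, and the difference of means was −1.08. A two-sided exact permutation test gave p = 0.10, the smallest that 3 against 3 allows. With two-sided exact sign flips between paired libraries, p was 0.25, and no smaller value can arise from 3 pairs. The median gene of the 3 was Snhg3 in every library, so the difference is that of Pvt1 less that of Snhg3.

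Pvt1 held 26.8 ± 6.80% of their summed CPM in sgPVT1 libraries and 42.0 ± 5.97% in sgTom libraries (SD, n = 3 each). Its share was 34.3%, 21.1% and 24.97% in sgPVT1 replicates 1, 2 and 3, against 48.2%, 36.3% and 41.4% in sgTom replicates 1, 2 and 3, with no overlap. Snhg12 held 50.7 ± 8.75% in sgPVT1 libraries and 41.6 ± 7.29% in sgTom libraries. Snhg3 held 21.3 ± 2.95% in sgPVT1 libraries and 15.3 ± 2.39% in sgTom libraries (SD, n = 3 each). Shares sum to a fixed total, so a lower Pvt1 share raises the others without any change in their levels.

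The order of the 4 genes depends on gene length. Per kilobase of merged exons, Snhg12 stood at 5.21 ± 1.58 CPM per kb in sgPVT1 and 5.50 ± 1.01 CPM per kb in sgTom (SD, n = 3 each). Snhg3, with 986 exon bases, stood at 5.20 ± 0.0522 and 4.90 ± 0.514 CPM per kb in sgPVT1 and sgTom. Both genes lay within each other's spread. Pvt1 followed at 0.923 ± 0.199 CPM per kb in sgPVT1 and 1.91 ± 0.373 CPM per kb in sgTom, and Gas5 was lowest at 0.0789 ± 0.0269 and 0.0917 ± 0.0381 CPM per kb. All 6 Pvt1 values lay below all Snhg3 and Snhg12 values on this scale and above all Gas5 values. Divided by the median transcript length of each gene in place of its merged exons, Pvt1 stood at 5.39 CPM per kb in sgPVT1 and 11.2 CPM per kb in sgTom. On that scale Snhg3 stood at 11.7 CPM per kb in sgPVT1 and 11.1 CPM per kb in sgTom, so Pvt1 lay near Snhg3 in sgTom and below it in sgPVT1. The place of Pvt1 thus rests on which of its transcripts are present, which these values cannot show.

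Long noncoding RNA genes were taken as those in the GENCODE M21 long noncoding set that RefSeq does not call protein-coding. Membership rests on that annotation alone and was not checked gene by gene. Among the 1264 such genes listed, whose median level was 0.603 CPM, Pvt1 ranked 71st by mean CPM in sgPVT1 and 36th in sgTom. Over the 6 libraries Snhg12 ranked 36th, Pvt1 46th, Snhg3 95th and Gas5 933rd. Per kilobase of merged exons the ranks were 45 for Snhg12, 50 for Snhg3, 170 for Pvt1 and 1159 for Gas5. Of these genes 744 were fitted, 399 with a higher and 345 with a lower estimate in sgPVT1, and their median log2 fold change was 0.01, beside −0.000399 over all genes fitted. Limma without the block called 0 of them and with the block 1, which was Pvt1. Among the 93 with a mean of at least 5 CPM, Pvt1 had the lowest estimate. The next was Gm44250 at 30.1 CPM in sgPVT1 and 33.8 CPM in sgTom (log2 fold change −0.15), and the highest was Gm26905 at 6.30 CPM in sgPVT1 and 4.64 CPM in sgTom (0.36). Both were chosen after their values were seen, and neither passed.

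**Figure D3:**
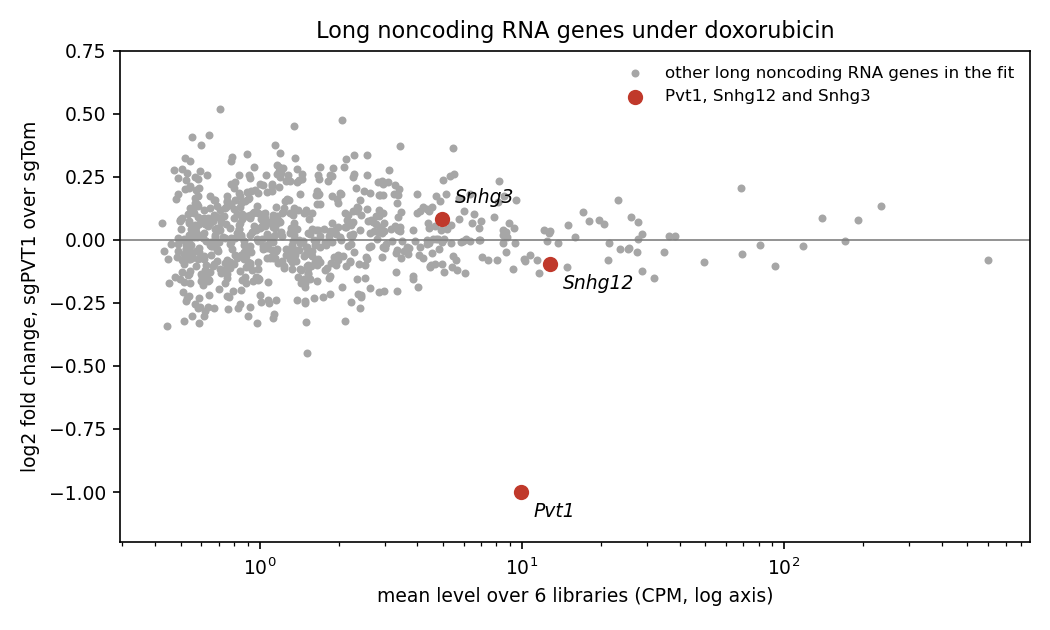
Log2 fold change of sgPVT1 over sgTom (vertical axis) against mean CPM over the 6 libraries (horizontal log axis) for the 744 long noncoding RNA genes in the fit. Red points are Pvt1, Snhg12 and Snhg3. Pvt1 lies at −0.999, apart from the other genes with a mean of at least 5 CPM, whose estimates run from −0.15 to 0.36.

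Replicate number was looked at apart from the guide. An F test on the replicate terms in limma called 7022 of 14440 genes (48.6%). Of the 3 members fitted these included Pvt1 (limma adjusted p = 0.00124) and Snhg12 (limma adjusted p = 4.04e-04) but not Snhg3 (limma adjusted p = 0.487), and Gas5 did not pass without the filter (limma adjusted p = 0.468). With so many genes called, these calls are no result about the members. Pvt1 was highest in replicate 1, at 1.42 times the mean of the other sgPVT1 libraries and 1.38 times that of the other sgTom libraries. Snhg12 was highest in replicate 2, at 1.63 times the mean of the other sgPVT1 libraries and 1.35 times that of the other sgTom libraries. Across the 6 libraries the log2 levels of Pvt1 and Snhg12 had a Pearson r of −0.00398, which describes libraries that share depth and pairing. Counting error alone gave a coefficient of variation of 3.25% to 5.50% for Pvt1 in a library, against 21.6% between sgPVT1 libraries and 19.5% between sgTom libraries. For Snhg3 the coefficient of variation between sgPVT1 libraries was 1.004%, smaller than the counting error of 5.17% to 5.94% in each.

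Macrophage markers also moved with replicate number. All 13 of 13 looked at were present at 0.5 CPM or more in every library, with no marker at 0, among them Lyz2 and Cd68. Their summed level was 366.9, 107 and 135.2 CPM in sgPVT1 replicates 1, 2 and 3, against 233.6, 112.6 and 133.7 CPM in sgTom replicates 1, 2 and 3. Replicate 1, where Pvt1 was highest, was thus also the replicate with the highest macrophage sum under both guides, and their part in the replicate difference of Pvt1 was not tested. The Pvt1 ratios were 0.491, 0.507 and 0.448 in pairs 1, 2 and 3, and the part of macrophage content in them was not tested. Endothelial, epithelial, muscle and neural markers summed to at most 257.6 CPM per list in any sgPVT1 library and 253.1 CPM in any sgTom library, and 0 of 3 erythroid markers were listed.

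The genes whose log2 levels followed Pvt1 most closely over the 6 libraries were VIMP, Cox7c, Atp6ap2, Zcrb1 and Dnajc10. They are the 5 highest by Pearson r among 10398 genes with a mean of at least 5 CPM, at 0.989, 0.982, 0.969, 0.965 and 0.960. Cox7c encodes a subunit of cytochrome c oxidase, Atp6ap2 an accessory protein of the vesicular proton pump and Dnajc10 a chaperone of the endoplasmic reticulum. Their levels differed far less between guides than those of Pvt1. Cox7c stood at 83.3 ± 1.18 CPM in sgPVT1 and 88.7 ± 0.612 CPM in sgTom (SD, n = 3 each; log2 fold change −0.09). All 5 had log2 fold changes of −0.07 to −0.12, and none passed in either limma fit. The 6 points share guide, pairing and depth, and no more is read from these values.

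Genes that share reads or sequence with the members were followed beside them. Snhg3 shares 135 exon bases on the same strand with Rcc1, the exchange factor of the nuclear transport GTPase Ran, so reads there are uncertain. Rcc1 stood at 21.4 ± 0.450 CPM in sgPVT1 and 19.8 ± 0.954 CPM in sgTom (SD, n = 3 each; log2 fold change 0.10), and did not pass in either limma fit. Snhg3 also shares 705 exon bases with Gm17300 on the opposite strand. The kit marks strand, per the labels, and the strand setting of the counting is not given in the sources used here. Of the snoRNAs inside the members, Snora73b of Snhg3 stood at 1.59 ± 0.306 CPM in sgPVT1 and 1.41 ± 0.123 CPM in sgTom. Snora16a, a name with more than 1 locus in Snhg12, stood at 0.672 ± 0.216 CPM in sgPVT1 and 0.548 ± 0.0853 CPM in sgTom (SD, n = 3 each). Neither passed in either fit, and 0 of the 10 snoRNA genes inside Gas5 were listed.

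No call was made among the other noncoding host genes of snoRNAs. Of 16 on the list 7 were fitted, 4 with a higher and 3 with a lower estimate, and 0 passed in either limma fit. Their median log2 fold change was 0.11, beside −0.000399 over all genes. Snhg6 stood at 17.8 ± 0.698 CPM in sgPVT1 and 16.4 ± 0.484 CPM in sgTom, higher in 3 of 3 pairs (log2 fold change 0.11). Snhg5 stood at 8.58 ± 0.888 CPM in sgPVT1 and 7.67 ± 0.380 CPM in sgTom, also higher in 3 of 3 pairs (0.15). Snhg18 stood at 14.4 ± 3.61 CPM in sgPVT1 and 15.5 ± 3.27 CPM in sgTom, lower in 3 of 3 pairs (−0.11; SD, n = 3 each).

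The core snoRNP proteins, with which snoRNAs form ribonucleoprotein particles, also held no call in either limma fit. Of 17 fitted, 14 had a higher and 3 a lower estimate, with a median log2 fold change of 0.05, and 8 were higher in 3 of 3 pairs, against 14.4% of all genes. Dkc1, the pseudouridine synthase of H/ACA snoRNPs, stood at 12.3 ± 0.333 CPM in sgPVT1 and 10.2 ± 1.01 CPM in sgTom (log2 fold change 0.27, limma adjusted p = 0.570 with the block). Gar1 stood at 12.8 ± 0.286 CPM in sgPVT1 and 11.6 ± 0.334 CPM in sgTom (0.14). Nop56, of the C/D class, stood at 11.2 ± 0.596 CPM in sgPVT1 and 9.97 ± 1.41 CPM in sgTom (0.17). The methyltransferase Fbl stood at 50.1 ± 1.08 CPM in sgPVT1 and 47.6 ± 1.46 CPM in sgTom (0.07; SD, n = 3 each). Of 24 protein-coding snoRNA host genes, 20 had a higher and 4 a lower estimate, with a median of 0.05 and 12 higher in 3 of 3 pairs. The ribosomal protein gene Rpl7a among them stood at 401 ± 17.96 CPM in sgPVT1 and 367 ± 32.8 CPM in sgTom (SD, n = 3 each; 0.13). This list shares Dkc1, Nop56 and Nop58 with the previous one, and 0 of its genes passed.

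Factors of nonsense-mediated decay, which is known to act on Gas5 and other host transcripts, had 11 higher and 6 lower estimates among 17, with a median of 0.01. Of these, 3 were higher and 1 lower in 3 of 3 pairs. Among all genes fitted, 14.4% were higher and 14.4% lower in 3 of 3 pairs, a share to set beside each such count here. Casc3, a component of the exon junction complex, stood at 48.4 ± 0.859 CPM in sgPVT1 and 44.9 ± 1.93 CPM in sgTom (SD, n = 3 each; 0.11). Paraspeckle proteins, which assemble on Neat1, had 14 higher and 6 lower estimates among 20, with a median of 0.05. In 3 of 3 pairs 9 were higher and 1 lower, so such counts were not particular to the snoRNA lists. Hnrnpa1 among them stood at 168.8 ± 5.76 CPM in sgPVT1 and 154 ± 9.91 CPM in sgTom (SD, n = 3 each; 0.13). Proteins of nuclear speckles, where Malat1 resides, had 13 higher and 4 lower estimates among 17, with a median of 0.05. Here 8 were higher and 0 lower in 3 of 3 pairs. Srrm1 stood at 120.6 ± 4.45 CPM in sgPVT1 and 115.5 ± 1.33 CPM in sgTom (SD, n = 3 each; 0.06). None of these 3 lists had a gene that passed in either limma fit.

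A list of other long noncoding RNAs had 9 higher and 8 lower estimates among 17, with a median of 0.00 and 0 calls in either limma fit. H19, an imprinted growth-restraining RNA, stood at 118 ± 46.5 CPM in sgPVT1 and 117 ± 31.6 CPM in sgTom. Tug1 stood at 12.4 ± 0.649 CPM in sgPVT1 and 12.5 ± 0.698 CPM in sgTom, a level like that of Snhg12. Peg13 stood at 27.4 ± 2.99 CPM in sgPVT1 and 30.0 ± 3.85 CPM in sgTom, lower in 3 of 3 pairs (log2 fold change −0.12). Firre, which helps organise nuclear architecture, stood at 24.6 ± 5.08 CPM in sgPVT1 and 21.9 ± 3.83 CPM in sgTom (0.16). Mir22hg stood at 26.8 ± 6.77 CPM in sgPVT1 and 25.2 ± 6.31 CPM in sgTom, and Gm26917 at 74.1 ± 24.2 CPM in sgPVT1 and 63.5 ± 18.8 CPM in sgTom (SD, n = 3 each).

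Of the 14 genes fitted around Pvt1 and Myc on chromosome 15, 3 had a higher and 11 a lower estimate, with a median of −0.02. With the block limma called Pvt1 lower and Myc higher and none of the other 12. Fam84b stood at 14.8 ± 0.975 CPM in sgPVT1 and 13.4 ± 1.10 CPM in sgTom (0.14), and Trib1, a pseudokinase gene, at 35.5 ± 1.93 CPM in sgPVT1 and 34.0 ± 2.20 CPM in sgTom (SD, n = 3 each; 0.06). Of 14 p53-induced reference genes 11 had a higher and 3 a lower estimate, with a median of 0.02 and 0 calls. Cdkn1a, which encodes the cell cycle inhibitor p21, stood at 1395 ± 165 CPM in sgPVT1 and 1334 ± 134 CPM in sgTom (SD, n = 3 each; 0.06).

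**Figure D4:**
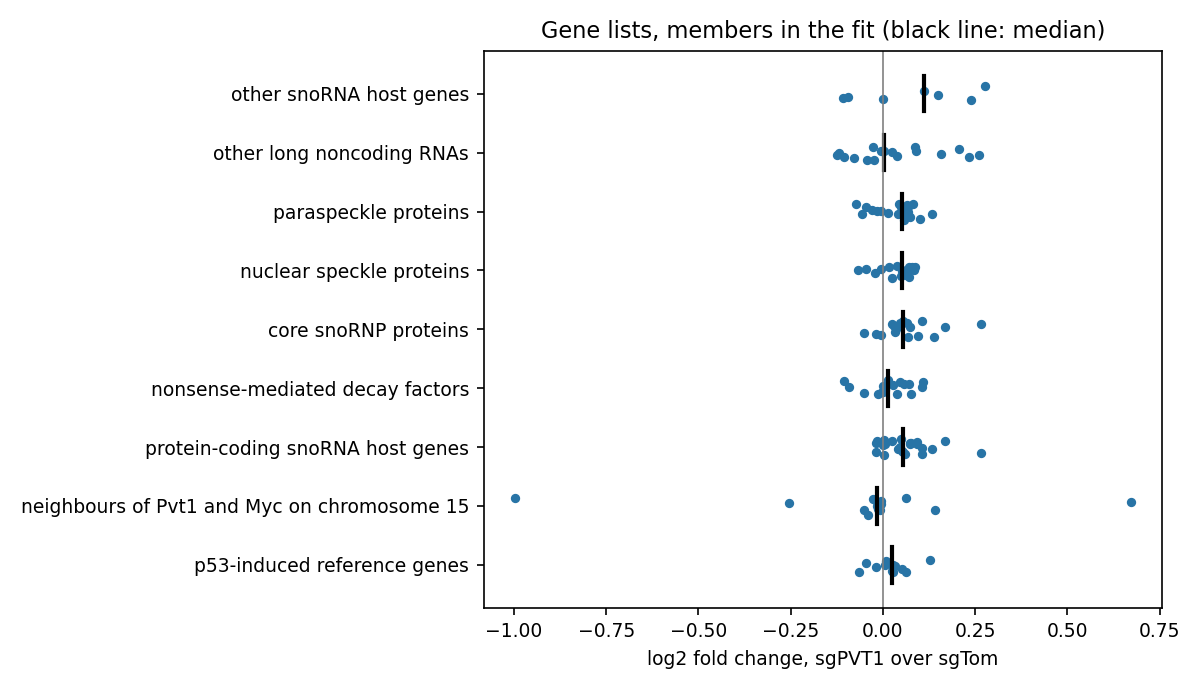
Log2 fold change of sgPVT1 over sgTom (horizontal axis) for each fitted gene (points) of 9 gene lists, with the median as a black line and a small vertical scatter for legibility. Pvt1 at −0.999 and Myc at 0.67 stand apart in the list of neighbours, and the list medians lie between −0.02 and 0.11.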

How the data were processed

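Per the file headers, the authors deposited CPM per gene and library from edgeR. The submitters' processing notes name mm10, edgeR 3.22.3, HTSeq 0.6.1, TopHat2 2.0.14 and StringTie 1.2.4. Deposited beside them, per the file headers, are the authors' own log2 fold change, mean log2 CPM, p-value and false discovery rate. Of 16427 entries, 2 name no gene and were left out (9.33% to 10.2% of reads in sgPVT1 libraries and 8.78% to 9.69% in sgTom libraries). The 6 columns of per-sample pseudo-counts were not used. CPM steps gave whole reads within 0.01 for 100% of values.

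Limma 3.58.1 (R 4.3.3; trend, robust) was run on log2(CPM + 0.5) over genes that reached 0.5 CPM in 3 or more libraries, with 4 residual degrees of freedom (2 with the block). Its 95% intervals use moderated degrees of freedom. Alternatives were other pseudocounts, filters, scalings and tests, the block, and libraries left out. EdgeR 4.0.16 and DESeq2 1.42.0 were run on the recovered reads. The guide test of each tool, with and without the block, was also run on simulated counts. Those counts gave all genes the same spread beyond counting error, which real genes need not share, and no support is drawn from them. Deviations from group means correlated at 0.869, 0.739 and 0.817 for equal replicate numbers, which come from the labels, and at most at 0.203 for others. The members and gene lists were chosen with earlier results of these data known. Named list genes are up to 4 with the smallest p and a mean of at least 5 CPM (6 for long noncoding RNAs). Intervals of single libraries cover counting error only.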

Additional observations from a re-analysis of the deposited data

How the results depend on the processing

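Of 25 alternatives, 10 gave more calls than the 0 of the limma fit without a block. DESeq2 called 1 gene. The replicate block called 5, and also 5 with edgeR, 6 with DESeq2, 5 with quantile normalization, 4 with median centring and 5 with no filter (an alternative chosen after seeing the data). In each of these 1 member was called, Pvt1, with log2 fold changes of −0.999, −1.05, −1.06, −1.06, −0.994, −1.0 and −0.999 for the block, DESeq2, block with edgeR, block with DESeq2, and block with quantile, centred or unfiltered values. Its adjusted p over the alternatives ranged from 2.61e-16 to 1.0. Leaving out 1 library at a time without the block gave 0 to 0 calls and −1.16 to −0.85 for Pvt1. Leaving out a replicate number with the block gave 8, 160 and 9 calls without replicates 1, 2 and 3, with 1 member called each time, and −1.01, −1.04 and −0.95 for Pvt1. The cause was not tested. The paired fits changed the call of no other member. Snhg12 turned to 0.0393 without sgPVT1 replicate 1 and to 0.0433 without sgTom replicate 2 (range −0.32 to 0.0433), and Gas5 to 0.0513 without sgTom replicate 1. None of these estimates passed. Pvt1 relative to the other 3 ran from −1.23 to −0.96. With 1 library left out, the mean share of Pvt1 ran from 23.0% to 29.6% in sgPVT1 and from 38.9% to 44.8% in sgTom. Per kilobase, with all libraries, its mean share was 8.21% in sgPVT1 and 15.4% in sgTom. Of the 5 genes most like Pvt1, 2 were kept by Spearman's rho and 3 with a mean of at least 1 CPM. The replicate F test called 6947 to 7259 genes. With 13 to 30 reads per library, differences in Gas5 within its counting intervals were not detectable. The list of 8 could be analysed only for its 4 listed genes.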
